A study of Mus musculus with 10 samples.

Results

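The 6 genes Srebf2, Scap, Insig1, Insig2, Mylip and Stard4 cover the sterol sensor of the liver cell, the transcription factor it controls, a switch that removes the LDL receptor, and a sterol carrier. They were chosen by name and are 6 of 32636 gene names on the array, with 12 of 41128 probes. All 6 passed the detection filter, as did 17847 names in all. The livers came from males of the inbred C57BL/6NCrSlc strain, every one on a diet high in cholesterol. In the 5 control mice the diet was the only treatment. The 5 mulberry mice also drank an extract of mulberry leaves, and livers were taken after 4 weeks. By its title the study asked about suppressed cholesterol synthesis, and its design allows the single comparison of mulberry with control. Mice on an ordinary diet are not analysed here, so levels are relative to a liver already loaded with dietary sterol.

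SREBP2, the product of Srebf2, is a transcription factor made as a membrane precursor in the endoplasmic reticulum. When membrane sterol is low, the escort protein Scap carries the precursor to the Golgi, where proteases free its active part, and when sterol is plentiful Insig1 or Insig2 holds Scap back. The active factor raises transcription of the sterol synthesis enzymes, of Stard4 and of Insig1 itself, which closes a feedback loop. Mylip, also called IDOL, is a ubiquitin ligase that marks the LDL receptor for degradation, and its gene is a target of the oxysterol receptor LXR.

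Promoter windows are printed for Insig1, the gene with the smallest p of the 6, for Srebf2, the factor itself, and for Mylip, whose control is attributed to LXR. They are RefSeq windows of assembly GRCm38.p6, from 250 bases before to 50 bases after a start, and 5 of the 6 genes had at least 1. Insig1 lies at chr5:28071162-28071461, Srebf2 at chr15:82147019-82147318 and Mylip at chr13:45389492-45389791, each on the plus strand and read 5′ to 3′. Capitals mark the NF-Y box CCAAT, the Sp1 box GGGCGG, the E-box CANNTG and, in Srebf2, the letters TCACCCCA, all searched on both strands.
Insig1: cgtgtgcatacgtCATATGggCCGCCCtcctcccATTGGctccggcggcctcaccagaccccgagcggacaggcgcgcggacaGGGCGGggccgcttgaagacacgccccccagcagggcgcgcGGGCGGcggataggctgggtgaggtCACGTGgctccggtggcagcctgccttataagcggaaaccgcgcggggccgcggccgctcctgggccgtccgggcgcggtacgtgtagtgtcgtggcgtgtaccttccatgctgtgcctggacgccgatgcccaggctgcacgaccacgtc
Srebf2: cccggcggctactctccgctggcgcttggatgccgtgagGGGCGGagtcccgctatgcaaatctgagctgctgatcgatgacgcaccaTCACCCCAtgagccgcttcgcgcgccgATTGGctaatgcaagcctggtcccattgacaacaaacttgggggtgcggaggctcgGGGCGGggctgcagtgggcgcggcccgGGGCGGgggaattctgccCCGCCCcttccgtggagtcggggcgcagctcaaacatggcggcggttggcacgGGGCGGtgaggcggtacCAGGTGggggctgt
Mylip: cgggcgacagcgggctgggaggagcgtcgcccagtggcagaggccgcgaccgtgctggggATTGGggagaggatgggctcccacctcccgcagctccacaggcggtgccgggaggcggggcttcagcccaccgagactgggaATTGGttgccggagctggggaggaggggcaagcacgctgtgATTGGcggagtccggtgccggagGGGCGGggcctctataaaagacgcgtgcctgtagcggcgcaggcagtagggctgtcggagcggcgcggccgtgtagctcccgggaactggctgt

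The sterol regulatory element core TCACNCCAC was found in 0 of the windows of these 5 genes and in 1.24% of all 32851 windows. The shortened form TCACCCCA, searched after the sequences had been seen, differs from the core by lacking its last letter and by a fixed middle letter. It stood in the Srebf2 window only, first base at -162 from the start, with an NF-Y box from -135, and in 1.56% of all windows. The Insig1 window held an NF-Y box at -216, 3 Sp1 boxes and 2 E-boxes, and the Mylip window held 3 NF-Y boxes, 1 Sp1 box and 0 E-boxes. Of all windows, 37.4% held an NF-Y box, 35.7% an Sp1 box and 72.3% an E-box. The LXR element, 2 copies of AGGTCA with any 4 letters between them, was in none of the windows of these genes and in 0.0152% of all windows. A match is a description of letters, and the absence of one concerns this window alone.

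Levels are log2 of the processed Cy3 signal after subtraction of the array's own 75th percentile. A level of 0 thus marks that percentile, and it is not read between genes; where genes are subtracted within an array, each is first set to its own control mean. Arrays were scanned on 2 days and on 4 slides: control 2, 3 and 5 with mulberry 3 and 5 on scan day 1, and control 1 and 4 with mulberry 1, 2 and 4 on scan day 2. Slide 1 held control 2, 3 and 5, and slide 2 held mulberry 3 and 5. Slide 3 held control 1 and 4 with mulberry 1, and slide 4 held mulberry 2 and 4. Within scan day 1 the groups thus lay on different slides, and group and slide cannot be told apart there. Between 54.4% and 62.4% of probes were well above background on an array. Of 9 hepatocyte markers tested, all had mean levels above 0 in both groups, with Alb at 10.12 in control and 9.92 in mulberry. Mulberry 1 and mulberry 5 stood apart, with macrophage marker means of 1.92 and 1.99 relative to the control mean. The control range was -0.76 to 0.91 and the other mulberry arrays lay between -0.67 and 0.17, so the differences of the 6 genes and the pathway lists are given with and without these 2 arrays. In whole liver, fewer cells of a type and less RNA per cell cannot be told apart. In the deposited series table, each control column matched the scanner data of a differently numbered control (r 0.890 to 0.971 over 11150 genes, against -0.51 to -0.04 for its own number). The mulberry columns matched their own numbers (r 0.940 to 0.985). Numbers used here are those of the scanner files, and the groups are the same either way.

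Insig1 had the smallest p of the 6 genes, with levels below the control mean in all 5 mulberry livers. Insig1 codes for an anchor that holds Scap back when sterol is plentiful, and the gene is itself a target of SREBP2. Its level was -0.05, -0.34, 0.34, 0.67 and 0.09 in control 1 to 5. It was -1.15, -0.19, -0.61, -0.21 and -1.21 in mulberry 1 to 5. The groups overlapped: 3 mulberry arrays lay below every control, mulberry 2 and 4 lay above control 2, and 4 of 5 controls lay above every mulberry array. The means were 0.14 ± 0.38 in control and -0.67 ± 0.49 in mulberry (SD, n = 5 each). The difference was -0.81 ± 0.26 (SE), or 0.569-fold with a 95% interval from 0.384 to 0.844. In limma's test its unadjusted p was 0.00921, at rank 138 of 17847 genes, and its adjusted p of 0.897 did not pass the threshold of 0.05. By limma 0 of 17847 genes passed that threshold (0%, smallest adjusted p = 0.506), and 924 had an unadjusted p under 0.05 (5.18%). Of these genes 409, or 2.29% of all tested, were on the lower side, where Insig1 was the only one of the 6; 2.89% of all tested were on the higher side, with 0 of the 6. All 5 mulberry arrays lay below all 5 controls for 0.319% of genes and above them for 0.409%, and 0 of the 6 genes were among either. The share of higher genes among those with an unadjusted p under 0.05 was 55.7%. It moved to 7.86% under median scaling, 32.0% under quantile normalization and 98.6% when arrays were centred on hepatocyte markers. Insig1 stayed below 0 in each. Median scaling and the centring move the difference of every gene by the same amount, so the sign of Insig1 there is no separate test.

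The second Insig1 probe had levels of -1.45, -0.53, -0.27, -0.97 and -0.47 in control and of -2.36, -0.81, -1.21, -1.27 and -2.05 in mulberry. Its difference was -0.81 ± 0.32, and its levels correlated with the first probe at r = 0.76 over the 10 arrays. Mulberry 1 and mulberry 5 were the lowest arrays on both probes. Among controls, control 2 was lowest on the first probe and control 1 on the second. Without mulberry 1 and mulberry 5 the difference of the gene was -0.47 ± 0.23 (limma adjusted p = 0.564, unadjusted p = 0.0667), with the remaining mulberry arrays at -0.61 to -0.19. The 2 lowest Insig1 arrays also had the highest macrophage and lymphocyte means. Among controls there was no such order. Control 2, lowest on the first probe, had the highest macrophage mean (0.91), but control 1, lowest on the second probe, had -0.42. Control 4, the highest array on the first probe, had the next highest macrophage mean of the controls (0.23). Over the 10 arrays Insig1 correlated with the macrophage mean at r = -0.70 and with the hepatocyte mean at r = 0.71, as a description. With each array centred on the hepatocyte markers in place of the 75th percentile, the Insig1 difference was -0.53 ± 0.22 (limma adjusted p = 0.416), where the median of all tested genes was 0.27. On the first probe the arrays of scan day 1, where the groups lay on different slides, gave -0.94, and those of scan day 2 gave -0.83. The second probe was less even, with -1.21 on scan day 1 and -0.28 on scan day 2. Without mulberry 1 and 5 that probe gave -0.36. On slide 3, the only slide with both groups, control 1 and 4 and mulberry 1 gave -1.46 on the first probe. Weighting arrays by their quality gave -0.54 on that probe.

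Insig2, the second anchor of Scap, has a liver transcript known to be held down by insulin, and it did not differ by more than its error. Its level was 6.80, 5.70, 5.78, 5.98 and 6.42 in control 1 to 5 and 5.61, 6.10, 6.42, 6.26 and 5.86 in mulberry 1 to 5. The groups overlapped almost entirely, with control 1 highest and mulberry 1 lowest of all 10 arrays. The difference was -0.09 ± 0.24 (limma adjusted p = 0.957), with a 95% interval from -0.61 to 0.43. The second probe, designed to another Insig2 transcript accession, followed the first at r = 0.91 and differed by -0.21 ± 0.29. The sign of the difference was not stable: it was 0.17 within scan day 1, -0.40 within scan day 2, 0.12 without mulberry 1 and 5, and 0.02 under quantile normalization. With each gene relative to its control mean, Insig1 minus Insig2 on the same array differed by -0.73 between groups, with SDs over arrays of 0.64 in control and 0.34 in mulberry (n = 5 each).

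Scap, the escort of the SREBP precursor, differed by less than its error and was lowest in mulberry 1. Its single probe read 5.03, 4.72, 5.37, 5.07 and 5.03 in control 1 to 5. In mulberry 1 to 5 it read 4.12, 5.32, 5.29, 4.85 and 4.64. Mulberry 1 and 5 lay below every control, and mulberry 2 and 3 lay above all controls but control 3. The difference was -0.20 ± 0.23 (limma adjusted p = 0.909), and without mulberry 1 and 5 it was 0.11 ± 0.18. Over the 10 arrays Scap correlated with the hepatocyte marker mean at r = 0.91 and with the macrophage mean at r = -0.92. The part of tissue makeup in the Scap values was not tested. Centred on hepatocyte markers, the Scap difference was 0.08 ± 0.15.

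Srebf2 itself, the gene of the transcription factor, had the smallest difference of the 6. Its level was -0.68, -1.22, -1.18, -1.02 and -1.37 in control 1 to 5 and -0.77, -1.47, -1.43, -0.98 and -0.88 in mulberry 1 to 5. The ranges overlapped, with mulberry 2 and 3 below every control and control 1 above every mulberry array, and the arrays above the control mean of -1.09 were control 1 and 4 with mulberry 1, 4 and 5. The difference was -0.01 ± 0.19 (limma adjusted p = 0.993), and its 95% interval ran from -0.42 to 0.40, or from 0.745-fold to 1.32-fold. Without mulberry 1 and 5 the Srebf2 difference was -0.20 ± 0.19. A second probe was well above background on 1 of 5 arrays of each group and gave no usable level. The Srebf2 row of the deposited series table held linear values from 255.3 to 306.9, and it correlated with the probe used here at r = 0.37 only, after columns were set to their best matching arrays. For the other 5 genes that correlation was 0.91 to 0.99. Which spots the submitters combined for Srebf2 was not stated in any source read for this work, and the series table put its difference at 0.09 ± 0.08.

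**Figure D1:**
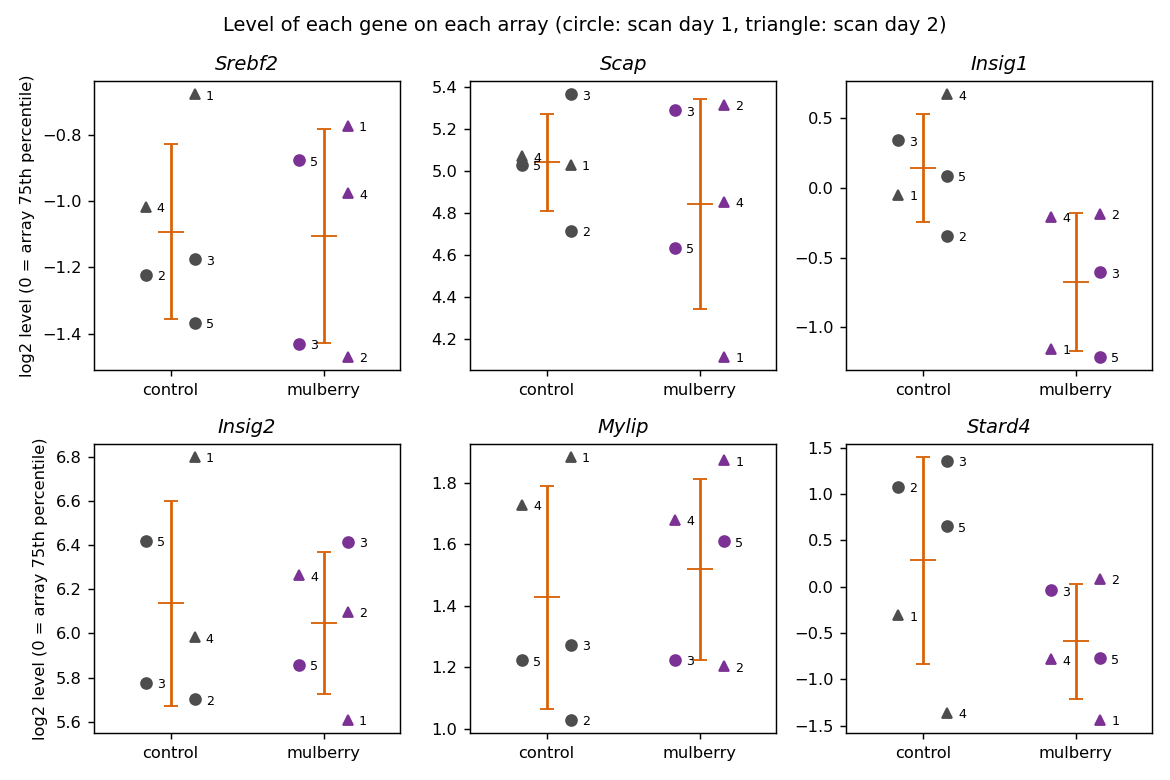
Level of each gene (log2, 0 is the 75th percentile of the array) on the 5 control and 5 mulberry arrays, numbered by replicate, with circles for scan day 1 and triangles for scan day 2. Orange bars are group means ± SD (n = 5). Insig1 is below its control mean on all 5 mulberry arrays, and the control arrays of Srebf2, Mylip and Stard4 separate by scan day.

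Mylip, the ligase that sends the LDL receptor to degradation, did not differ by more than its error. Its level was 1.88, 1.03, 1.27, 1.73 and 1.22 in control 1 to 5. It was 1.87, 1.20, 1.22, 1.68 and 1.61 in mulberry 1 to 5, all within the control range. The difference was 0.09 ± 0.20 (limma adjusted p = 0.950), with a 95% interval from -0.36 to 0.54, and it was -0.06 ± 0.22 without mulberry 1 and 5. A second Mylip probe was dim, well above background on 3 of 5 control and 1 of 5 mulberry arrays, and it did not follow the first (r = 0.07). Abca1, another LXR target and a cholesterol exporter, was at -0.21 ± 0.12 (limma adjusted p = 0.897), and the LXR gene Nr1h3 was at -0.02 ± 0.13. Other genes of the LXR list were lower, with Scd1 at -0.85 ± 0.28, Srebf1 at -0.85 ± 0.37 and Abcg8 at -0.80 ± 0.36. Each had a limma adjusted p of 0.897. Of the 13 genes of that list 9 were below 0 and 4, Mylip among them, above it. Relative to control means, Mylip minus Abca1 on the same array was higher by 0.30 in mulberry, with SDs of 0.40 in control and 0.36 in mulberry.

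Stard4, which codes for a small cytosolic sterol carrier, had the largest difference of the 6 and also the widest spread. Its level was -0.31, 1.08, 1.36, -1.36 and 0.65 in control 1 to 5. It was -1.44, 0.09, -0.04, -0.78 and -0.77 in mulberry 1 to 5. All mulberry arrays lay below the control mean of 0.28, yet control 4 was lower than 4 of the 5 mulberry arrays. The difference was -0.87 ± 0.50 (limma unadjusted p = 0.107, adjusted p = 0.897). A second probe, dimmer than the first, gave -0.49 ± 0.31. The third probe read -4.25, -3.09, -3.07, -3.36 and -3.36 in control and -4.46, -4.50, -4.56, -3.96 and -4.44 in mulberry. That probe was well above background on 5 of 5 control but 3 of 5 mulberry arrays. It passed the detection filter through the control group alone, so its values are a description, and it correlated with the first probe at r = 0.55.

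**Figure D2:**
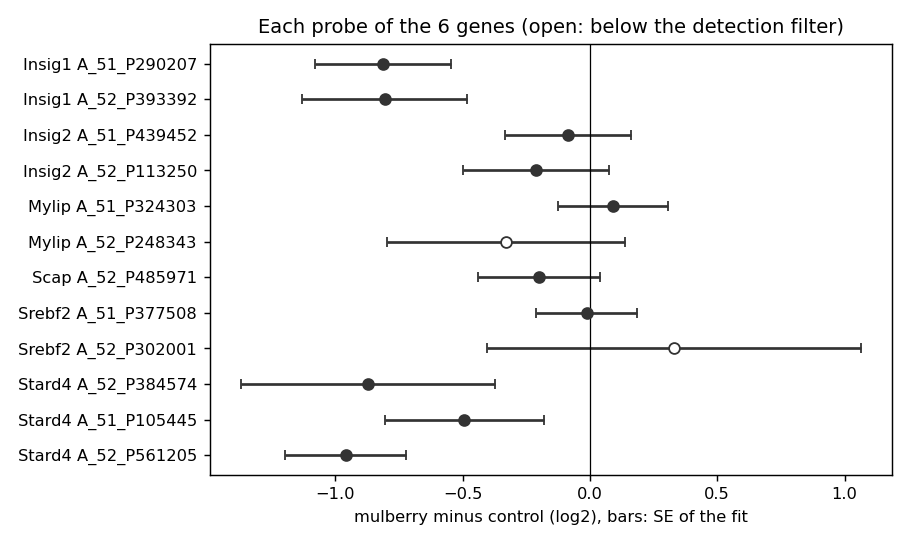
Difference between mulberry and control (log2, points) with the SE of the fit (bars) for each of the 12 probes of the 6 genes. Open points are the second probes of Mylip and Srebf2, which were below the detection filter. Both Insig1 probes and all 3 Stard4 probes are on the side below 0, the lowest Stard4 point being the probe that passed the filter through the control group alone.

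By scan day, the Stard4 differences were of unlike size. Controls of day 1 stood at 1.08, 1.36 and 0.65 against -0.04 and -0.77 in mulberry, a difference of -1.44. The controls and mulberry arrays of that day lay on different slides. On scan day 2 controls stood at -0.31 and -1.36 against -1.44, 0.09 and -0.78, a difference of 0.12. The change between days was 1.56 (limma interaction, unadjusted p = 0.04997, adjusted p = 0.9998), and 0 of all genes tested passed an adjusted p of 0.05 for it. The controls of Srebf2, Mylip and Stard4 separated completely by scan day, as did those of 37.7% of all tested genes. For Srebf2 and Mylip both day 2 controls were above the day 1 controls, and for Stard4 both were below. Without mulberry 1 and 5 the Stard4 difference was -0.53 ± 0.57.

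**Figure D3:**
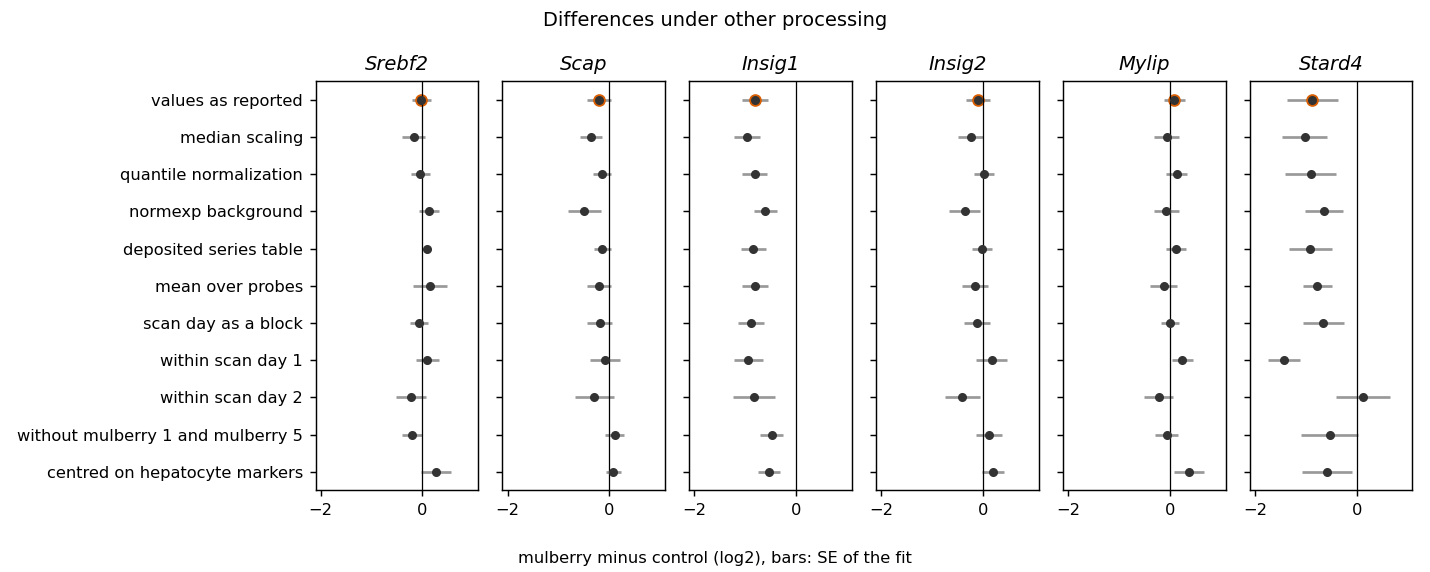
Difference between mulberry and control (log2, points) with its SE (bars) for each gene under the reported processing (ringed in orange) and 10 other settings. Insig1 stays below 0 in all those shown, from -0.97 to -0.47, Stard4 is above 0 within scan day 2, and the other 4 genes lie on either side of 0.

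Correlations between the 6 genes over the 10 arrays are a description, since the arrays share slides and scan days. Srebf2 and Mylip varied together (r = 0.89, and 0.90 after group means were subtracted). Mylip and Stard4 varied in opposite directions (r = -0.82). Insig1 and Srebf2, target and factor, had r = -0.25, and Srebf2 had a median r of -0.41 with 19 cholesterol synthesis genes, against -0.22 with all tested genes. Of the 6 genes Stard4 was closest to the synthesis genes, with r = 0.88 to their mean, and its r with the 19 ran from -0.25 (Mvd) to 0.86 (Msmo1). Insig1 followed the mean of the LXR list at r = 0.76 and the synthesis mean at r = 0.70, below the 0.75 of Scap with the synthesis mean. The r of Insig1 with single synthesis genes ran from -0.82 (Mvd) to 0.81 (Tm7sf2). Its median was 0.57, and 0.37 after group means were subtracted. Insig1 and Stard4 had r = 0.31 with each other, and -0.05 after group means were subtracted. Relative to control means, Srebf1 minus Srebf2 on the same array differed by -0.83, with SDs of 1.13 in control and 0.38 in mulberry. Stard4 minus Srebf2 differed by -0.86, with SDs of 1.28 and 0.94. Insig1 minus Srebf2 differed by -0.80, with SDs of 0.45 and 0.75.

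Among 12255 tested genes with a RefSeq symbol, those most like each of the 6 were ranked by Pearson r over the 10 arrays. Scap was most like Col18a1 (r = 0.994), Galt (r = 0.992) and Emc1 (r = 0.985). Insig1 was most like Yod1 (r = 0.967), Smad5 (r = 0.956) and Nars2 (r = 0.955). Insig2 was most like Dpp7 (r = 0.971), Glyctk (r = 0.943) and Ap1m1 (r = 0.936). For Mylip the nearest were Rin2 (r = 0.957), Gpihbp1 (r = 0.937) and Igfbp3 (r = 0.908), and for Srebf2 they were Patz1 (r = 0.934), Bmp4 (r = 0.919) and Mkrn1 (r = 0.909). For Stard4 they were Zranb2, Tut7 and Cbx1, each at r = 0.973. None of these 18 was a gene of sterol control in the lists used here, and with so many candidates and 10 arrays a high r is a description.

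**Figure D4:**
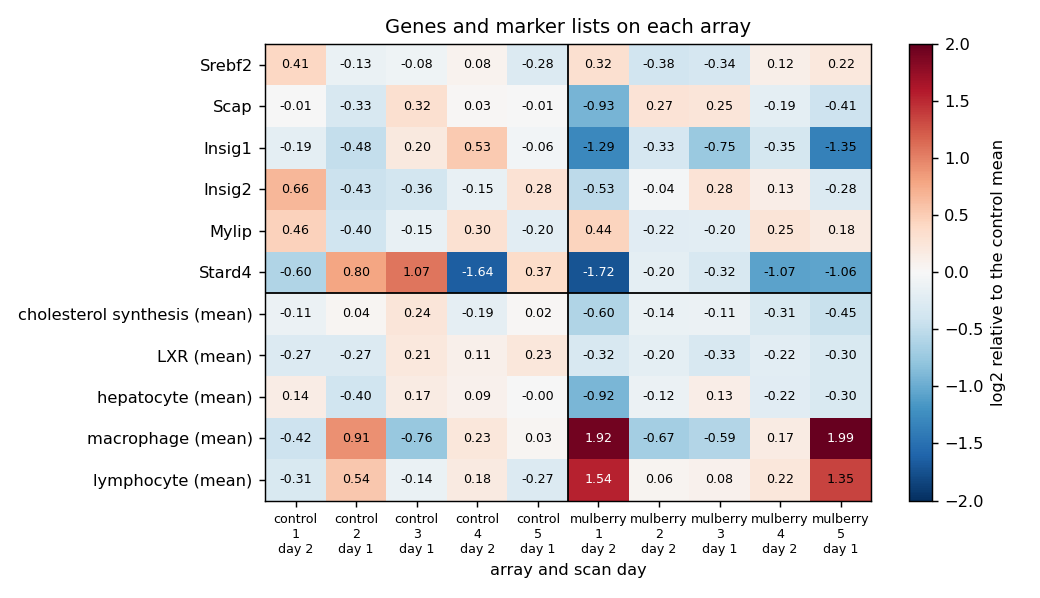
Level of each gene and of the mean of 5 gene lists on every array (log2 relative to the control mean, colour and number), with the scan day under each array. Mulberry 1 and mulberry 5 have the highest macrophage means (1.92 and 1.99) and the lowest Insig1 levels.

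Of 18 tested genes of LDL receptor control, 12 had a difference below 0 and 6 above, with a median of -0.05, and by limma 0 passed. Without mulberry 1 and 5 the count was also 12, with a median of -0.04. Of all tested genes 53% had a difference below 0 and the median was -0.02. At an unadjusted p under 0.05, 3 were on the lower side, among them the endocytic adaptor gene Dab2 (-0.37 ± 0.14), and Vldlr, a receptor of the same family (0.87 ± 0.38), was on the higher side. Over all tested genes, 2.29% were on the lower side and 2.89% on the higher side at that limma p. Among 20 tested genes of the SREBP machinery, 16 had a difference below 0, the median was -0.10 and 0 passed. Without mulberry 1 and 5 the count was 9 of 20 and the median 0.01. The 3 with an unadjusted p under 0.05 were Insig1, Srebf1 (-0.85 ± 0.37, or -1.40 on scan day 1 and -0.15 on scan day 2), the gene of the lipogenic relative of SREBP2, and Rnf139 (-0.32 ± 0.12), which codes for a ubiquitin ligase of the endoplasmic reticulum. Mbtps1, the first protease that cuts SREBP in the Golgi, was at -0.12 ± 0.14.

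Stard4 had the largest difference of the sterol carrier list. That list holds START and Aster genes and also Osbp, Osbpl1a, Npc1 and Npc2, which belong to neither family. Of its 11 genes 5 had a difference below 0, with a median of 0.07 and 0 at an unadjusted p under 0.05. Without mulberry 1 and 5 the direction of that list turned, with 7 of 11 below 0 and a median of -0.07. The median of all tested genes in that setting was 0.06. The next by size were Osbpl1a (-0.43 ± 0.24), Gramd1c (-0.31 ± 0.18) and Npc2 (0.29 ± 0.21), the lysosomal sterol carrier. For the LXR list, to which Mylip belongs, 9 of 13 had a difference below 0 with a median of -0.14, and 0 passed (10 of 13 and -0.12 without mulberry 1 and 5). At an unadjusted limma p under 0.05, 3 were on the lower side and 0 on the higher. Of 19 cholesterol synthesis genes 15 had a difference below 0, the median was -0.34 and 0 passed (14 and -0.19 without those arrays). At that p 7 were on the lower side and 0 on the higher, where 2.29% of all tested genes were on the lower side. Without mulberry 1 and 5 the lower side held 0 LXR and 1 synthesis gene, and 195 of all 17847 genes. Of 11 genes of insulin and fasting, the signals to which Insig2 answers, 9 had a difference below 0 with a median of -0.20, against 6 of 11 and a median of -0.04 without those arrays. Among markers, 8 of 9 hepatocyte genes had a difference below 0 (median -0.27), 13 of 14 macrophage genes (median 0.56) and 10 of 10 lymphocyte genes (median 0.64) above it. Of 8 stellate and fibroblast markers 7 were above 0, as were 3 of 7 endothelial and 2 of 4 bile duct markers. Lymphocyte means were 1.54 and 1.35 above the control mean in mulberry 1 and 5, and 0.06 to 0.22 in the other mulberry arrays. Stellate and fibroblast means were 1.12 and 1.27 in mulberry 1 and 5, and -0.23 to 0.19 in the others.

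**Figure D5:**
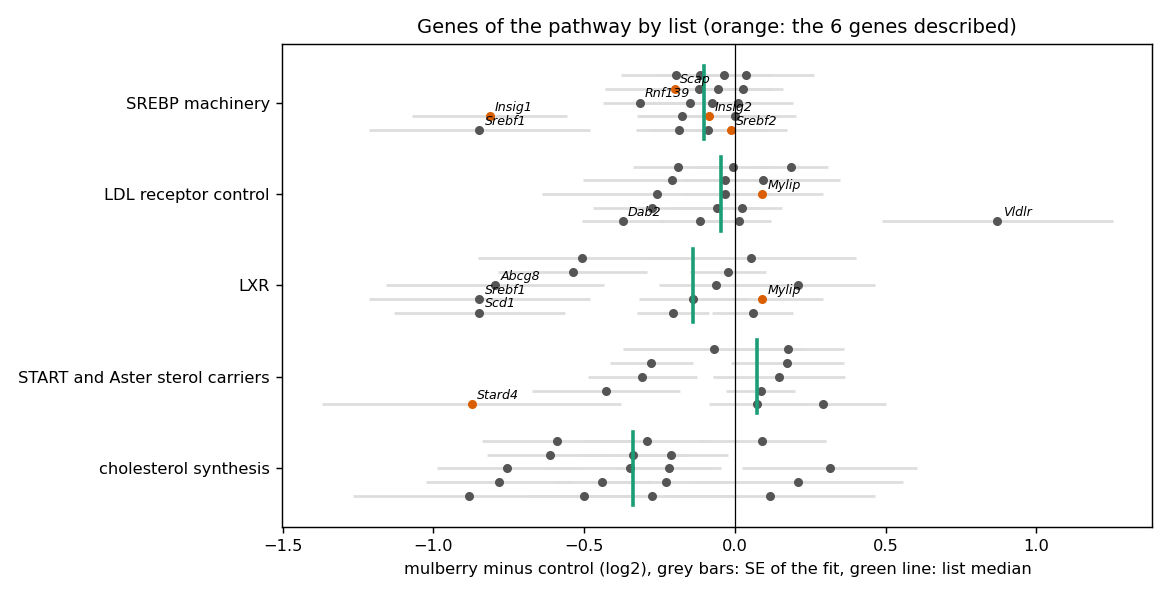
Difference between mulberry and control (log2, points) with the SE of the fit (grey bars) for tested genes of 5 lists (those not reported here are left out), with the 6 genes in orange and the medians of all tested list members as green lines. Insig1 and Stard4 lie near -0.8 to -0.9, while Srebf2, Scap, Insig2 and Mylip lie between -0.20 and 0.09.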

How the data were processed

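RNA of 10 livers, 500 ng each, was labelled with Cy3 and measured on 10 one-colour Agilent arrays, per the labels' protocols. The deposited scanner tables, from Agilent Feature Extraction 10.1.1.1 (named in the submitters' processing notes), hold an intensity per spot that is corrected for background and, per the file headers, not normalized across arrays. The deposited series table holds an intensity per gene symbol, linear by its values, with normalization and probe combination not given in the sources used here. Column medians of that table (log2) were 5.14, 5.15, 5.18, 5.10 and 5.17 for control 1 to 5 and 5.31, 5.17, 5.11, 5.19 and 5.24 for mulberry 1 to 5. For Insig1 and Stard4 its values followed the linear mean of the gene's probes (r of 0.9997 and 0.9986).

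Outlier spots were dropped, replicate spots averaged, and 46 probes with a missing value removed; saturation was not flagged on any spot. Transcript accessions gave probe names through a RefSeq table (GRCm38.p6), which matched 25070 probes (61.0%). File headers name an older assembly, so coordinates are given only for promoter windows. The 75th percentile was taken over spots that were neither controls nor outliers. A gene was its probe of highest mean, tested where it was well above background on 4 or more of a group's 5 arrays. Differences were fitted by lmFit and eBayes of limma 3.58.1 in R 4.3.3 (two-sided, no covariates), and p values were adjusted over all genes by Benjamini-Hochberg; the package data.table (version 1.17.8), Python 3.11.15 and matplotlib 3.10.9 were also used. The fit was tested on simulated data. The number of arrays limits the precision. Alternatives covered scaling, background (normexp, offset 50, on median signals because mean signals were not in the tables), filters, probes, scan day, slide, array weights and left-out arrays. The named genes were the 6 genes with all their probes, a fixed set of regulators and targets, up to 4 per list by size or with an unadjusted p under 0.05, and the 3 most alike for each of the 6. The members and the lists were chosen with earlier results of these data known. Synthesis genes named for correlation (Msmo1, Mvd, Tm7sf2) were chosen after their values were seen. Some genes of the lists are counted but not reported here.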

Additional observations from a re-analysis of the deposited data

Results flagged for a closer look

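In groups of 5 arrays, a gap from the lowest or highest array to its nearest neighbour above 0.71 of the group's range was looked for in 31 genes, which gave 62 sets; 1 met it, where chance gives about 3.1. Thrsp, a lipogenic regulator of the insulin and fasting list, had mulberry 2 at 2.59 against 0.37 to 0.65 in the other mulberry arrays (gap 0.874 of the range). None of the 6 genes described above had such an array.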

How the results depend on the processing

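Over 29 alternatives run, Insig1 kept a difference below 0 in 29, from -1.46 to -0.47. These alternatives are not separate tests, since each used the same arrays or a part of them. Dropping the filter, requiring detection on all arrays and a replicate block cannot move a difference. They left Insig1 at -0.81 and Stard4 at -0.87, as in the reported processing. The lowest Insig1 value came from slide 3, where a single mulberry array stands against 2 controls. The slide as a fixed block gives that same estimate. In the other 27 its unadjusted p was under 0.05 in 25 (the exceptions were within scan day 2 and without mulberry 1 and 5), with a smallest adjusted p of 0.259. For Stard4 28 of 29 were below 0, and none of the 6 genes passed the adjusted threshold in any of them. The count of genes past it was 0 except with array weights, without mulberry 1, and without mulberry 1 and 5, where it was 1 each. Settings that turned a sign were these. Srebf2 was at 0.0210 with the 75th percentile of always-detected probes, 0.13 after normexp, 0.0939 in the deposited series table and 0.0845 in that table less its 75th percentile, 0.16 as a mean over probes, 0.0746 with the slide as a fixed block and within slide 3, 0.10 within scan day 1, 0.0670 with array weights, 0.27 centred on hepatocyte markers and 0.33 on its other probe. Scap was at 0.11 without mulberry 1 and 5 and 0.0850 centred on hepatocyte markers. Insig2 was at 0.0204 under quantile normalization, 0.17 within scan day 1, 0.0481 with array weights, 0.12 without mulberry 1 and 5 and 0.20 centred on hepatocyte markers. Mylip was at -0.0634 under median scaling, -0.0643 after normexp, -0.0584 without mulberry 1 and 5, -0.12 as a mean over probes, -0.22 within scan day 2 and -0.33 on its other probe. Stard4 was at 0.12 within scan day 2. With single replicates left out the ranges were -0.0964 to 0.0904 for Srebf2, -0.319 to -0.0187 for Scap, -0.94 to -0.68 for Insig1, -0.195 to 0.0795 for Insig2, -0.00903 to 0.205 for Mylip, -1.28 to -0.60 for Stard4, and 0 to 1 for the count. Scap was nearest 0 without mulberry 1. List medians moved by more than their spread between arrays for LDL receptor control under median scaling (-0.201), and after normexp for that list (-0.163), the SREBP machinery (-0.352) and LXR (-0.393). With the slide as a fixed block, and within slide 3, they were -0.565 for cholesterol synthesis, -0.489 for the SREBP machinery and -0.188 for LDL receptor control. Centred on hepatocyte markers they were -0.0518 for cholesterol synthesis, 0.182 for the SREBP machinery, 0.238 for LDL receptor control and 0.147 for LXR. The median of all genes was -0.171 under median scaling, -0.251 in the slide settings and 0.268 in the last. The causes were not tested. Deviations from the group means correlated between arrays of the same replicate number at r from -0.44 to 0.41. The labels state no pairing, and so few correlations cannot show whether the mice were paired. For no control was the mulberry array of its own number the one most like it. The control numbers also differ between the scanner data and the series table. A replicate block thus assumes a pairing that nothing here establishes, and its p values depend on that assumption. With such a block the count stayed 0. Insig1 was then at -0.81 ± 0.23 (limma unadjusted p = 0.00935, adjusted p = 0.921). Stard4 was at -0.87 ± 0.31 (limma unadjusted p = 0.0257, adjusted p = 0.921). Within slide 3, with 1 mulberry array, Insig1 was at -1.46 and Scap at -0.93. The dim second probes of Srebf2 and Mylip and the Stard4 probes near background limit what their values show. Leaving out mulberry 1 and 5, centring on hepatocyte markers and the interaction with scan day were chosen after seeing the data.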
